A study of Mus musculus with 24 samples.

Results

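Complement and coagulation proteins of the blood plasma are made largely by hepatocytes, and the expression of their genes was followed in mouse liver under ligands of the constitutive androstane receptor (CAR, gene symbol Nr1i3). CAR is a nuclear receptor of the liver whose ligands switch on genes of drug metabolism. A list of 39 genes was searched among the array's probe sets annotated to a single gene symbol, and 36 were found among the 12393 genes of the array. C3, Cpb2 and C4b had no such probe set and were left out. Where a gene had several probe sets, which was so for 6 of the 36, the one with the highest mean over the 24 arrays was taken. All 36 genes lay above the limit for dim probes, the 40th percentile of an array, on all 24 arrays, and were among the 9167 genes tested.

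Coagulation is a chain of plasma proteases, most of which circulate as inactive precursors. It is started by tissue factor with factor VII or, on foreign surfaces, by the contact system, and it ends with thrombin cutting fibrinogen into the fibrin of a clot, which plasmin later dissolves. Complement is a related protease chain of innate immunity: lectins or antibodies bound to a microbe lead to C3 convertases, and the terminal components then assemble into a pore, the membrane attack complex. Some of these genes, C2, Cfb and Serping1 among them, are also expressed by macrophages and other cells.

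The 24 mice were female, of mixed C57BL/6x129Sv background, and belonged to 3 genotypes of 8 arrays each. Wild-type mice carried mouse CAR only. Knockout mice lacked mouse CAR (mCAR -/-). Human CAR mice (CAR.AH) had a transgene that expressed human CAR from the mouse albumin promoter, which is active in hepatocytes. They were on the mCAR -/- background, through breeding to knockout mice over 2 cycles. Each genotype was treated for 3 days by intraperitoneal injection with corn oil as the vehicle, with phenobarbital at 100 mg/kg per day, with CITCO at 30 mg/kg per day, or with TCPOBOP at 3 mg/kg, given in 1 injection on the first day with corn oil on the days after it. The livers were collected 6 h past the final injection. The labels describe TCPOBOP as a ligand of mouse CAR and CITCO as one of human CAR, while phenobarbital moves either receptor into the nucleus. Each of the 12 groups held 2 mice with 1 array per mouse, which is what limits the precision of the values here.

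Values are log2 expression, differences are on the log2 scale, each with its standard error from limma (SE), and an adjusted p is a Benjamini-Hochberg value over all 9167 genes. A gene is said to have risen or fallen where that value was under 0.05. P-values rest on the spread between mice of the same group, pooled over all 12 groups. They do not rest on the spread of the compared groups alone. In whole liver, fewer cells of a type and less RNA per cell cannot be told apart.

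The checks of genotype and of TCPOBOP went with the labels: the 8 wild-type arrays had Nr1i3 values of 6.84 or more, while the other 16 had at most 5.60, and Cyp2b10, the standard CAR target, changed by 7.42 with TCPOBOP in wild type and by -0.29 in knockout. With CITCO, labelled a ligand of human CAR, Cyp2b10 was higher in wild type too, by 3.23 (adjusted p = 0.00226), against 3.01 in human CAR mice. The 2 wild-type CITCO arrays read 7.36 and 8.98. On corn oil Cyp2b10 was already higher in human CAR mice than in wild type, by 3.58 (adjusted p = 0.000272). TCPOBOP changed it by -1.21 in human CAR mice (adjusted p = 0.632). Corn oil in human CAR mice is thus not a baseline without Cyp2b10 expression. Whether the Nr1i3 probe set reads the ablated part of the gene is not given in the sources used here. All 10 hepatocyte markers on the array were above the dim limit on every array. So were 9 of 11 Kupffer, 7 of 8 stellate, 7 of 12 endothelial and 4 of 7 neutrophil markers on the array. The Kupffer marker Fcgr1 and the stellate marker Lrat were below the limit on all arrays. 2 arrays stood apart from the other 22, phenobarbital replicate 2 of the knockout and phenobarbital replicate 1 of the human CAR mice. Their median correlation with the other arrays was 0.980 and 0.970, against 0.981 to 0.991. The lowest of the 22 were the wild-type TCPOBOP arrays (0.983 and 0.981), so the knockout array stood apart only narrowly. On the 2 arrays that stood apart, the 3' to 5' differences of Actb and Gapdh probes, which rise with RNA degradation, were 0.450 and 0.547. These lay within the range of 0.360 to 0.605 of the others. The summed neutrophil markers were 13.04 on the human CAR array of this pair, above the 10.12 to 12.29 of the other 22. Calls that were lost without these arrays are named with their results.

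Across the 12 groups the 36 genes differed in how far their group means ranged, from 0.19 to 1.49 with a median of 0.54, against a median of 0.43 over all genes tested. The widest ranges were those of C6 (1.49), Mbl1 (1.26), F11 (1.20), C9 (0.95), Mbl2 (0.94), Kng1 (0.93), Klkb1 (0.86) and C8a (0.83). The narrowest were those of Plg, the precursor of plasmin (0.19), Serpinc1, which encodes antithrombin (0.25), F7 (0.31) and Hrg (0.31). Within groups the median SD was 0.12 for the 36 genes and 0.14 for all genes. Probe signals averaged over the arrays ran from 7.45 for Pros1, 7.90 for F11 and 8.54 for C2 to 12.84 for Fgg, 12.97 for Fgb and 12.63 for Fga, values that belong to probes and do not order the transcripts.

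**Figure D1:**
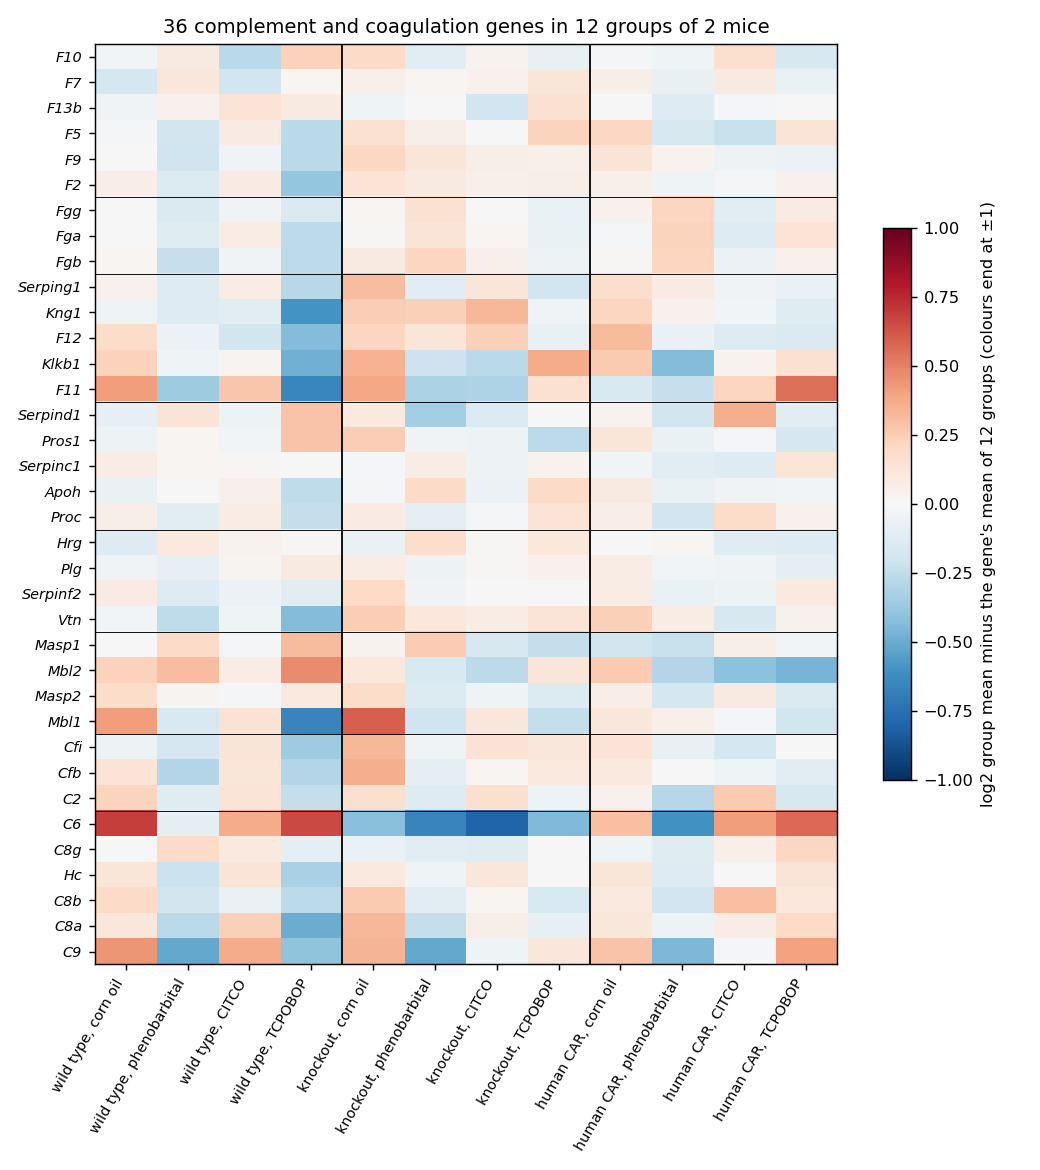
Group means of the 36 genes (rows, grouped by role) in the 12 groups of 2 mice (columns), coloured by the log2 difference from the gene's mean over the 12 groups, with colours ending at ±1. The column of wild-type mice given TCPOBOP holds the lowest mean of 18 of the 36 genes. C6 is low in the 4 knockout columns and in that of human CAR mice given phenobarbital. C9 is low in the 3 phenobarbital columns and in that of wild-type mice given TCPOBOP.

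The promoter stretches of 8 of the genes are shown because the results below turn on them: Mbl1, F11, C9, C8a, Hc and Vtn fell with TCPOBOP in wild type, C9 was low with phenobarbital, C6 was low in the knockout, and Fgb encodes a fibrinogen chain. They were chosen after the values were seen. Each is the 150 bases before the transcript start given in a promoter table from RefSeq's GRCm38.p6 annotation, read 5′ to 3′ along the gene's strand. That start lies inside the gene's full annotated span for 4 of the 8, so that 24 bases of the F11 stretch, 89 of C8a, 143 of C6 and all 150 of Hc fall within the gene. Capitals mark matches, on either strand, to 5 short motifs: GTTAAT (a core of HNF1 sites), CAAAGT (the core of HNF4 sites), TTGCNNAA (C/EBP), TTCNNNGAA (STAT) and AGGTCA (a repeat unit of nuclear receptor sites). HNF1, HNF4 and C/EBP proteins are transcription factors of the hepatocyte, and STAT3 carries the acute phase signal of interleukin 6. No 2 of the 10 marked matches overlap. The stretches lie at chr14:41151306-41151455, plus strand (Mbl1), chr8:45262032-45262181, minus strand (F11), chr15:6445196-6445345, plus strand (C9), chr4:104876399-104876548, minus strand (C8a), chr2:35061413-35061562, minus strand (Hc), chr11:78498970-78499119, plus strand (Vtn), chr3:83049864-83050013, minus strand (Fgb) and chr15:4727060-4727209, plus strand (C6).
Mbl1: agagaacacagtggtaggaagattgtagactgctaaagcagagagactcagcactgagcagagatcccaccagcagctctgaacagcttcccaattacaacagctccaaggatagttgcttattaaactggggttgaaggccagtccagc
F11: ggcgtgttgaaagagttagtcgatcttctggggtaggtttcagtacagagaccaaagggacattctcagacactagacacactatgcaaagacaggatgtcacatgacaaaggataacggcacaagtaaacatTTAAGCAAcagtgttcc
C9: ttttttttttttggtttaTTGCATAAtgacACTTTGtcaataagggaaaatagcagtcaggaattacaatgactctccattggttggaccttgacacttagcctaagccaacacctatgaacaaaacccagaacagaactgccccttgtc
C8a: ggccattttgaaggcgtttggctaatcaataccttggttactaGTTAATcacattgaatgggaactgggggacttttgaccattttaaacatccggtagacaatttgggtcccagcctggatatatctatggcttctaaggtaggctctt
Hc: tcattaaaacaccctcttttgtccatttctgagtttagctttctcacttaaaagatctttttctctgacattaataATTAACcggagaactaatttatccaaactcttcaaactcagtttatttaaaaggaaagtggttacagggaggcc
Vtn: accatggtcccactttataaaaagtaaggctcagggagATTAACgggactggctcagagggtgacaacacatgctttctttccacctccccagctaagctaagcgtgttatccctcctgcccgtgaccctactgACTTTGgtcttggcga
Fgb: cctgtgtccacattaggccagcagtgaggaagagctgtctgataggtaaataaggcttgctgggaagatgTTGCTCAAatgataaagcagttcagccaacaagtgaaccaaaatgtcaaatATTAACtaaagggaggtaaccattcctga
C6: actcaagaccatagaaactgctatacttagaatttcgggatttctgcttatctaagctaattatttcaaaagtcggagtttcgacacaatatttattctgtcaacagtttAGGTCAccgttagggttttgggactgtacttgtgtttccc
The Mbl1 stretch held none of the 5 motifs. C9 and Fgb each held a C/EBP match beside an HNF4 or an HNF1 match, Vtn held an HNF1 and an HNF4 match, C8a and Hc held an HNF1 match, F11 a C/EBP match and C6 a nuclear receptor match. Of the 36 genes 28 had a promoter entry. GTTAAT was present in 6 of these 28 (21.4%) and in 3.71% of 32851 RefSeq promoters of the same length. CAAAGT was present in 5 (17.9%, against 7.04%), TTGCNNAA in 6 (21.4%, against 5.46%), TTCNNNGAA in 3 (10.7%, against 4.09%) and AGGTCA in 8 (28.6%, against 8.58%). Of the 9 genes lowered by TCPOBOP 8 had an entry, against 20 of the others. GTTAAT was in 3 of these 8 and 3 of the 20, CAAAGT in 2 and 3, TTGCNNAA in 2 and 4, TTCNNNGAA in 0 and 3, and AGGTCA in 1 and 7. The 28 hold a single entry per gene, while the 32851 are all entries of the table, and the shares were not adjusted for base composition. These are counts of letters in a window and do not show binding.

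TCPOBOP in wild-type mice lowered 9 of the 36 genes and raised none. Those 9 were the mannose-binding lectin Mbl1, the contact system genes F11, F12 and Kng1, the terminal complement genes C9, C8a and Hc, prothrombin (F2) and vitronectin (Vtn). Over all 9167 genes tested 6.14% passed, 2.80% lower and 3.34% higher. The median change of the 36 genes was -0.27, against 0.01 over all genes tested, and 27 of the 36 changes (75.0%) were negative, against 48.7% of all genes. In 22 of the 36 genes both TCPOBOP arrays lay below both corn oil arrays, which was so for 27.0% of all genes. Both TCPOBOP arrays lay below all 22 other arrays of the study for 8 of the 36 (F2, F12, Kng1, Apoh, Vtn, Cfi, Mbl1 and Hc), and for 2.67% of all genes. The group had the lowest of the 12 means for 18 of the 36, and for 12.1% of all genes.

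**Figure D2:**
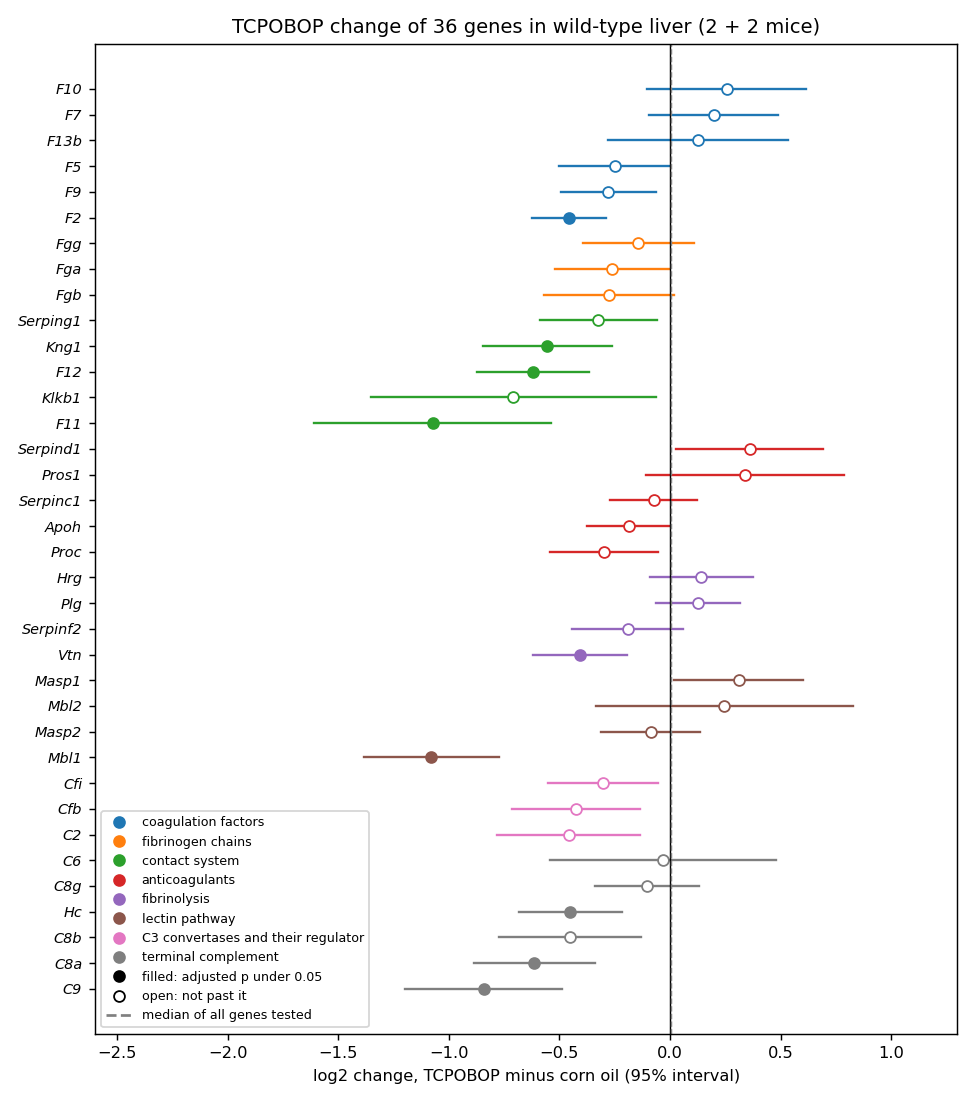
Log2 change of each of the 36 genes with TCPOBOP against corn oil in wild-type mice (points, 2 mice in each group) with its 95% interval (lines), coloured by role; filled points passed an adjusted p of 0.05. All 5 contact system genes and all 6 terminal complement genes lie left of 0 (C6 by -0.03, which turned positive with cyclic loess normalisation), and the 9 filled points are all on the left.

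The contact system starts clotting on foreign surfaces and releases bradykinin. All 5 of its genes had negative changes, and 3 of the 5 fell. F11, which encodes factor XI, the activator of factor IX, measured 8.32 on both corn oil arrays and 7.28 and 7.21 on the TCPOBOP arrays, a change of -1.07 (SE 0.25, adjusted p = 0.0169). F12, factor XII, went from 10.40 and 10.38 to 9.71 and 9.83, a change of -0.62 (SE 0.12, adjusted p = 0.00442). Kng1, kininogen, from which bradykinin is cut, went from 11.41 and 11.53 to 10.87 and 10.96, a change of -0.55 (SE 0.14, adjusted p = 0.0233). The groups of these 3 genes did not overlap. A second Kng1 probe set changed by -0.45. Mice have a closely related kininogen gene, and cross-hybridisation of the probes was not tested. Klkb1, plasma kallikrein, which cuts kininogen, changed by -0.71, from 9.26 and 9.13 to 8.78 and 8.21, and did not pass (adjusted p = 0.204). Serping1, the inhibitor of the contact proteases and of C1, changed by -0.32 (adjusted p = 0.150).

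The 6 terminal complement genes also had negative changes, that of C6 only under some settings, and 3 of them fell. C9, the subunit that polymerises into the pore, was 11.49 and 11.11 on corn oil and 10.62 and 10.30 with TCPOBOP, a change of -0.84 (SE 0.17, adjusted p = 0.00555). C8a, the C8 alpha chain, went from 10.43 and 10.22 to 9.86 and 9.57, a change of -0.61 (SE 0.13, adjusted p = 0.00851). Hc, the mouse gene of C5, went from 11.55 and 11.49 to 11.09 and 11.05, a change of -0.45 (SE 0.11, adjusted p = 0.0198). For each of the 3 both TCPOBOP mice were below both corn oil mice. C8b changed by -0.45 (adjusted p = 0.0954), while C8g (-0.10) and C6 (-0.03) were close to 0. C6 turned positive with cyclic loess normalisation (0.06) and without corn oil replicate 1 (0.20). Of the genes of the C3 convertases and their regulator, C2 changed by -0.46, Cfb by -0.43 and Cfi, the protease that inactivates C3b, by -0.30, and none of the 3 passed (smallest adjusted p = 0.0827).

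In the lectin pathway Mbl1 fell furthest of the 36 genes. Mbl1 encodes a mannose-binding lectin that recognises microbial sugars. It was 9.88 and 10.01 on corn oil and 8.85 and 8.89 with TCPOBOP, a change of -1.08 (SE 0.14, adjusted p = 0.000162). The second mannose-binding lectin gene, Mbl2, changed by 0.25 (adjusted p = 0.656) and its groups overlapped. The proteases that the lectins activate, Masp1 and Masp2, changed by 0.31 (adjusted p = 0.217) and -0.09 (adjusted p = 0.689), the latter turning to 0.01 with cyclic loess normalisation and without corn oil replicate 1. The 4 other probe sets of Masp1 changed by -0.50 to -0.00, and the mean of its probe sets by -0.06, so the sign of Masp1 depended on the probe set.

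Among the coagulation factors F2, prothrombin, was the only one of 6 to fall. It was 11.22 and 11.29 on corn oil and 10.82 and 10.77 with TCPOBOP, a change of -0.46 (SE 0.08, adjusted p = 0.00177). Its 2 TCPOBOP values were the lowest on the 24 arrays, the other 22 lying between 11.05 and 11.33. F9 changed by -0.28 (adjusted p = 0.127) and F5, the cofactor of factor X, by -0.25 (adjusted p = 0.251), although a second F5 probe set changed by -0.70. F7, F10 and F13b had positive changes of 0.20, 0.26 and 0.13, none of them past the threshold. F2, F7, F9, F10, Proc and Pros1 encode vitamin K dependent proteins, whose carboxylation lets them bind membranes. Of these 6, only F2 passed, and 3 had positive changes. The fibrinogen chains Fga, Fgb and Fgg changed by -0.26, -0.28 and -0.14 (smallest adjusted p = 0.241).

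Of the anticoagulant and fibrinolysis genes only Vtn, vitronectin, which stabilises the plasminogen activator inhibitor, fell. It went from 11.72 and 11.87 to 11.33 and 11.45, a change of -0.41 (SE 0.10, adjusted p = 0.0218), and a second probe set of it changed by -0.51. Proc, protein C, which inactivates factors V and VIII, changed by -0.30 (adjusted p = 0.151). Serpind1, heparin cofactor II, had the largest positive change of the 36 genes, 0.36 (adjusted p = 0.212), followed by Pros1, protein S, the cofactor of protein C, at 0.34 (adjusted p = 0.395). Both TCPOBOP arrays of these 2 genes lay above both corn oil arrays, as in 7 of the 36 genes and in 27.2% of all genes.

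The number of genes that fell depended on single mice. Without corn oil replicate 1 or without corn oil replicate 2 of the wild type 5 fell, without TCPOBOP replicate 1 it was 4 and without TCPOBOP replicate 2 it was 3. Mbl1 and F2 passed in all 4 of these fits, while F11, Kng1 and Hc passed in none of them. The change of F11 stayed between -1.10 and -1.04 in these fits. Without the 2 arrays that stood apart, which belong to other groups, 10 genes passed, 1 of them higher.

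Outside the 36 genes, 13 further complement genes were tested and 4 of them fell: C1s1, the protease of C1 (-0.72), C4bp, which binds C4b (-0.57), Cd59a, which blocks the pore (-0.87), and properdin, Cfp (-0.62). None rose. None of 9 further coagulation genes changed. Of 4 further fibrinolysis genes Anxa2, a plasminogen receptor, rose by 1.16 (adjusted p = 0.000951). Both measured genes of the vitamin K cycle stayed within 0.46 of 0 and did not pass. Of 18 acute phase genes 2 fell, Saa4 (-0.94) and Itih3 (-0.61), with a list median of -0.03. All 10 hepatocyte markers had negative changes (median -0.21) and none passed. Their summed level was 15.87 and 15.81 with TCPOBOP and 16.00 and 16.04 on corn oil, and its part in the result was not tested. The summed Kupffer markers were 11.68 and 11.38 with TCPOBOP and 11.90 and 11.46 on corn oil, and none of the 10 passed. Of 7 neutrophil markers Mpo rose by 0.52 (adjusted p = 0.0264), and the summed level was 11.22 and 12.04 against 10.58 and 11.95. Their part in the result was not tested either.

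In the knockout, which lacks the receptor of TCPOBOP, the same treatment lowered 1 of the 36 genes, Mbl1, while 0.0764% of all genes passed and 0.0436% fell. Mbl1 was 10.20 and 10.05 on corn oil and 9.39 and 9.17 with TCPOBOP, a change of -0.84 (SE 0.14, adjusted p = 0.0449). The call was lost without any 1 of the 4 mice: the adjusted p was 0.300 without corn oil replicate 1, 0.152 without corn oil replicate 2, 0.0741 without TCPOBOP replicate 1 and 0.447 without TCPOBOP replicate 2. All 10 Kupffer markers had negative changes in the same comparison (median -0.98), and Marco, a scavenger receptor of macrophages, fell by 1.47. The summed Kupffer level was 11.34 and 10.67 against 12.03 and 11.79, and all 18 acute phase genes had negative changes (median -0.35). Their part in the Mbl1 result was not tested. TCPOBOP in human CAR mice changed none of the 36 genes and none of all 9167 (0.0%). Before adjustment, p was under 0.05 for 2 positive and 3 negative changes in the limma fit, the one tool run for all comparisons. Over all 9167 genes it was under 0.05 for 303 positive and 307 negative changes. The largest changes there were those of Mbl2 (-0.73, adjusted p = 0.656) and F11 (0.70, adjusted p = 0.656).

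**Figure D3:**
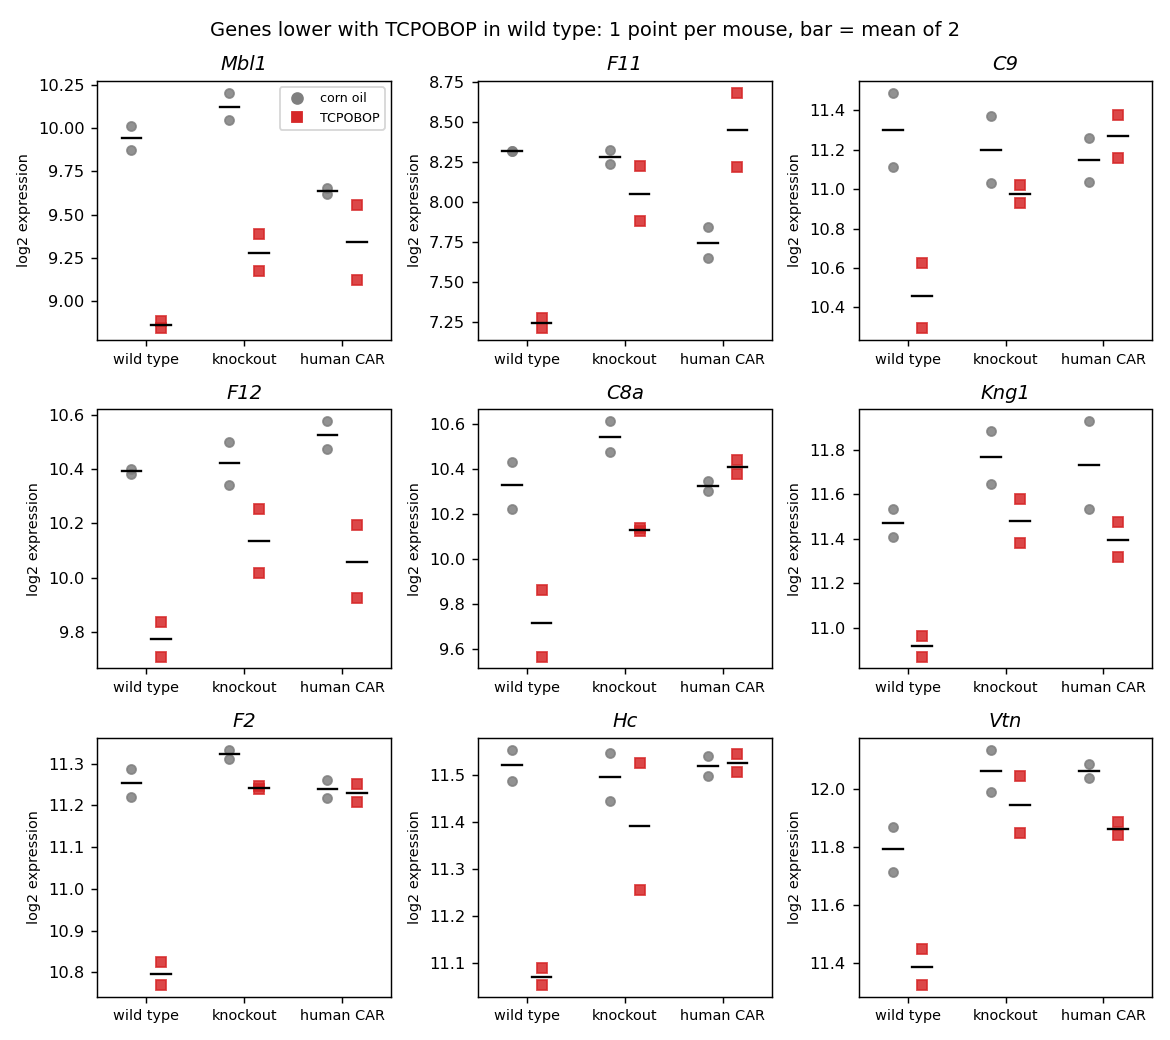
Log2 expression of the 9 genes lowered by TCPOBOP in wild type, on corn oil (grey circles) and with TCPOBOP (red squares) in each genotype; each point is 1 mouse and bars are means of 2. In wild type all red squares lie below the grey circles, while in human CAR mice those of F11 lie above them.

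The change in wild type was tested against that in each of the other genotypes. Against the knockout, none of the 36 differences passed, while 1.95% of all genes did, 1.29% higher and 0.665% lower in wild type. At an unadjusted p under 0.05, 3 were above and 6 below 0, against 638 and 455 of all 9167 genes. The smallest adjusted p was 0.109, for F2, whose change was lower in wild type by 0.38 (SE 0.11). F2 was 11.33 and 11.31 on corn oil and 11.25 and 11.24 with TCPOBOP in the knockout. The widest differences were those of Pros1 (0.84, SE 0.30, adjusted p = 0.214) and F11 (-0.84, SE 0.36, adjusted p = 0.333). For Mbl1 the difference was -0.24, with a 95% interval from -0.67 to 0.19, and for C8a -0.20, with an interval from -0.59 to 0.19. The 2 comparisons that make up each difference share no mice.

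Against human CAR mice, a comparison added after the data were seen, 2 of the 36 differences passed, while 1.87% of all genes did, 1.22% higher and 0.644% lower in wild type. F11 was 7.85 and 7.65 on corn oil and 8.68 and 8.22 with TCPOBOP in human CAR mice, so that its change there was positive, and the difference was -1.77 (SE 0.36, adjusted p = 0.0140). C9 was 11.04 and 11.26 on corn oil and 11.16 and 11.37 with TCPOBOP in human CAR mice, and the difference was -0.96 (SE 0.24, adjusted p = 0.0489). F2 (-0.45, adjusted p = 0.0505), Mbl1 (-0.78, adjusted p = 0.0618) and C8a (-0.70, adjusted p = 0.0643) did not pass. The F11 call was lost without wild-type corn oil replicate 1 (adjusted p = 0.0541) or 2 (0.0509), wild-type TCPOBOP replicate 2 (0.0656), human CAR corn oil replicate 2 (0.0540) or human CAR TCPOBOP replicate 1 (0.0835). The C9 call was lost without wild-type corn oil replicate 1 (0.218), wild-type TCPOBOP replicate 2 (0.240), human CAR corn oil replicate 1 (0.185) or 2 (0.0589), or human CAR TCPOBOP replicate 1 (0.0774) or 2 (0.170). It was also lost under 6 of 9 other settings (largest adjusted p = 0.0920), which the F11 call was not.

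Phenobarbital lowered C9 in wild type, the only one of the 36 genes to pass, while 0.578% of all genes fell and 0.895% rose. C9 was 11.49 and 11.11 on corn oil and 10.55 and 10.16 with phenobarbital, a change of -0.95 (SE 0.17, adjusted p = 0.00785). The call was lost without corn oil replicate 1 (adjusted p = 0.104) or phenobarbital replicate 2 (0.182). C6, the component that follows C5 in the terminal pathway, changed by -0.78 (adjusted p = 0.145) and F11 by -0.78 (adjusted p = 0.167). In 20 of the 36 genes both phenobarbital arrays lay below both corn oil arrays, against 27.2% of all genes, and in 7 both lay above, against 24.9%. The median change was -0.17, against -0.00 over all genes. All 10 Kupffer markers had negative changes (median -0.48), with a summed level of 11.22 and 11.06 against 11.90 and 11.46, and none passed. Their part in the C9 result was not tested. This comparison and that of TCPOBOP share their corn oil mice.

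In the knockout phenobarbital lowered 2 of the 36 genes, C9 and Mbl1, while 0.731% of all genes passed and 0.545% fell. C9 was 11.03 and 11.37 on corn oil and 10.30 and 10.40 with phenobarbital, a change of -0.85 (SE 0.17, adjusted p = 0.0309). Mbl1 was 10.20 and 10.05 on corn oil and 9.47 and 9.18 with phenobarbital, a change of -0.80 (SE 0.14, adjusted p = 0.0215). Neither passed without the 2 arrays that stood apart (adjusted p = 0.105 for C9 and 0.173 for Mbl1) or without corn oil replicate 1 (0.129 and 0.175) or 2 (0.220 and 0.0974) or phenobarbital replicate 2 alone (0.168 and 0.225). Without phenobarbital replicate 1 the group rests on the array that stood apart alone, so the calls of that fit are not read here. All 10 Kupffer markers had negative changes here, with a median of -1.27, and 4 of them fell. Their summed level was 11.18 and 10.31 with phenobarbital against 12.03 and 11.79, and 16 of 18 acute phase genes had negative changes (median -0.33). Their part in these results was not tested. The ligand comparisons in the knockout share their 2 corn oil mice, so the Mbl1 falls with phenobarbital and with TCPOBOP are not independent. Over the 36 genes the median deviation from a gene's mean was 0.16 and 0.13 on those corn oil arrays, the highest of the 24 arrays.

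Given to human CAR mice, phenobarbital moved none of the 36 genes past the threshold, while 0.665% of all genes did. At an unadjusted p under 0.05, 9 of the 36 changes were negative and 0 positive, against 1276 and 666 of all 9167 genes. C6 was 8.90 and 9.30 on corn oil and 8.11 and 8.28 with phenobarbital, a change of -0.91 (SE 0.24, adjusted p = 0.0716). C9 was 11.04 and 11.26 on corn oil and 10.25 and 10.58 with phenobarbital, a change of -0.73 (SE 0.17, adjusted p = 0.0534). Without phenobarbital replicate 2 the group rests on the array that stood apart alone, so the calls of that fit are not read here. Of the Kupffer markers 9 of 10 had negative changes (median -0.30), and all 7 neutrophil markers had positive ones (median 0.94), with none past the threshold. The summed neutrophil level was 13.04 and 11.47 with phenobarbital against 11.49 and 10.94, and its part in these values was not tested.

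C9 thus lay low on the phenobarbital arrays of each genotype. Its 6 phenobarbital values ran from 10.16 to 10.58 and its 2 values with TCPOBOP in wild type were 10.62 and 10.30, while the other 16 arrays ran from 10.81 to 11.49. Its phenobarbital change in wild type minus that in the knockout was -0.09, with a 95% interval from -0.60 to 0.41 (adjusted p = 0.930), and in human CAR mice minus that in the knockout it was 0.12, with an interval from -0.38 to 0.62 (adjusted p = 0.947). Of the 36 differences in the phenobarbital change between wild type and knockout none passed, against 0.153% of all genes. At an unadjusted p under 0.05, 1 was above and 0 below 0, against 431 and 407 of all 9167 genes. The widest were those of Serpind1 (0.64, adjusted p = 0.380) and C6 (-0.54, adjusted p = 0.674). Between human CAR mice and knockout none passed either, against 0.0109% of all genes. Here 2 were above and 1 below 0 at an unadjusted p under 0.05, against 272 and 452 of all 9167 genes. The widest differences were those of Mbl1 (0.74, adjusted p = 0.294) and C6 (-0.67, adjusted p = 0.676).

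Averaged over the 3 genotypes, a comparison of 6 with 6 mice added after the data were seen, phenobarbital lowered 15 of the 36 genes and raised none. Over all genes 8.69% fell and 7.15% rose. The median change of the 36 genes was -0.19, against -0.00 over all genes. Of the 6 terminal complement genes 5 fell: C9 by 0.84 (SE 0.10, adjusted p = 0.000176), C6 by 0.65 (SE 0.14), C8a by 0.37, C8b by 0.34 and Hc by 0.25, while C8g changed by 0.02. All 3 measured genes of the C3 convertases and their regulator fell, Cfb by 0.33, C2 by 0.32 and Cfi by 0.23. In the lectin pathway Mbl1 fell by 0.48 (SE 0.08, adjusted p = 0.00502) and Masp2 by 0.24. In the contact system F11 fell by 0.52, F12 by 0.24 and Serping1 by 0.23. F5 fell by 0.21 and Vtn by 0.18. None of the 6 vitamin K dependent genes passed (smallest adjusted p = 0.0515, for Proc), and neither did the 3 fibrinogen chains, whose changes were 0.03 to 0.08. Without the 2 arrays that stood apart those of Fga, Fgb and Fgg were 0.00, -0.03 and -0.01.

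These 15 calls were uneven in how they held. C9, C6, Mbl1, C8a and Cfb passed without each of the 12 mice in turn, and the other 10 did not. Without the 2 arrays that stood apart, only C9 (-0.80) and Mbl1 (-0.41) passed. The count was 8 without wild-type phenobarbital replicate 1 and 7 without replicate 2, 8 without knockout phenobarbital replicate 2, 6 without human CAR phenobarbital replicate 1, 9 without wild-type corn oil replicate 2, 8 and 7 without knockout corn oil replicates 1 and 2, and 6 without human CAR corn oil replicate 1. Cyclic loess normalisation gave 5 lower and 1 higher. In the same comparison 8 of 10 Kupffer markers fell (median -0.73) and 5 of 12 endothelial markers fell (median -0.29), while none of the 10 hepatocyte markers passed (median -0.06). The summed Kupffer level ran from 10.31 to 11.22 on the phenobarbital arrays and from 10.98 to 12.03 on the corn oil arrays, and its part in the result was not tested. Among the 13 further complement genes 8 fell, including the C1q chains C1qa, C1qb and C1qc, by 0.65, 0.80 and 0.82, which are also on the Kupffer list, and C1s1 by 0.42 and C4bp by 0.35.

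**Figure D4:**
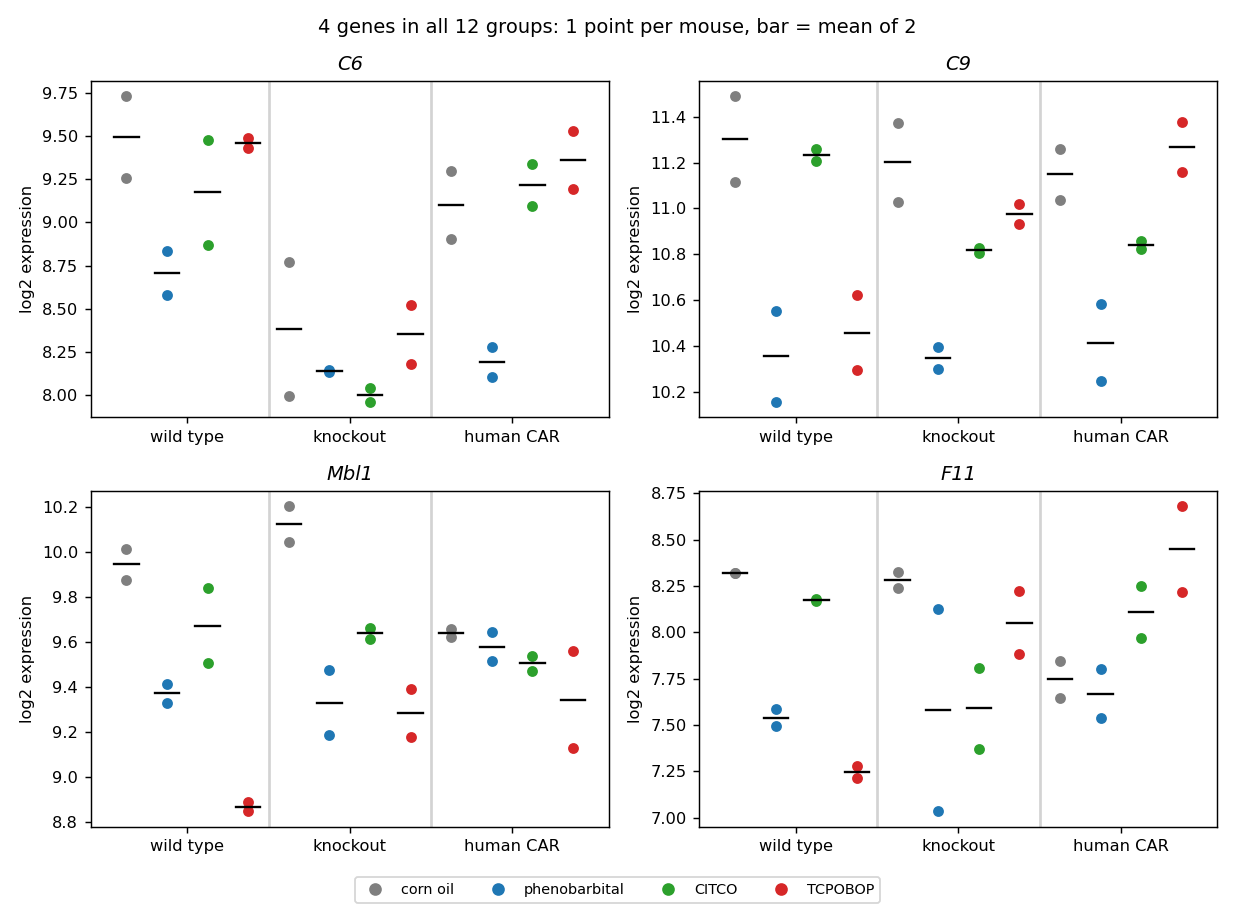
Log2 expression of C6, C9, Mbl1 and F11 in all 12 groups, coloured by treatment; each point is 1 mouse and bars are means of 2. C9 lies between 10.16 and 10.58 on the 6 phenobarbital arrays, and C6 lies at or below 8.77 on the 8 knockout arrays.

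C6 had the widest difference between knockout and wild type of the 36 genes. On corn oil it was 9.73 and 9.26 in wild type, 8.0 and 8.77 in the knockout and 8.90 and 9.30 in human CAR mice. The 8 knockout arrays ran from 7.96 to 8.77 and the 8 wild-type arrays from 8.58 to 9.73, overlapping where the wild type had received phenobarbital. The groups on corn oil did not overlap, but the difference of -1.11 (SE 0.24, adjusted p = 0.105) did not pass. Without knockout corn oil replicate 2, 1 of the 36 genes passed. Averaged over the 4 treatments, in a comparison added after the data were seen, C6 was lower in the knockout by 0.99 (SE 0.12, adjusted p = 9.89e-05), and over the 3 treatments without TCPOBOP by 0.95 (SE 0.14, adjusted p = 0.00143). Both calls held without each mouse in turn. With phenobarbital C6 overlapped between human CAR mice (8.11 and 8.28) and the knockout (8.14 and 8.15). In human CAR mice, averaged over the 4 treatments, C6 was higher than in the knockout by 0.75 (SE 0.12, adjusted p = 0.00797), the only one of the 36 genes to pass, while 0.338% of all genes did. This call held without each of the 16 mice but not with array weights (adjusted p = 0.0991).

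Over the 4 treatments 7 other genes were higher in the knockout than in wild type, while 3.12% of all genes were higher and 2.83% lower. They were Kng1 (0.42, SE 0.07, adjusted p = 0.00133), Vtn (0.33, SE 0.05, adjusted p = 0.000696), Cfi (0.25), F12 (0.25), F9 (0.24), F5 (0.21) and F2 (0.18). The wild-type mean here includes the TCPOBOP mice, in which 4 of the 7 had fallen. Without TCPOBOP-treated mice 3 of the 36 passed, against 1.68% of all genes: C6, Kng1 (0.37, SE 0.08, adjusted p = 0.0239) and Vtn (0.25, SE 0.06, adjusted p = 0.0376). Kng1 ran from 11.36 to 11.53 on these 6 wild-type arrays and from 11.65 to 11.96 on the 6 knockout arrays. Vtn ran from 11.56 to 11.87 and from 11.85 to 12.13, overlapping by 1 array. With the mean of probe sets neither Kng1 (0.25, adjusted p = 0.117) nor Vtn (0.21, adjusted p = 0.0888) passed over the 3 treatments. Vtn did not pass with cyclic loess normalisation either (adjusted p = 0.0648). Over the 3 treatments only C6 passed without wild-type phenobarbital replicate 1 or 2, without wild-type CITCO replicate 1 or 2, without knockout CITCO replicate 1, without wild-type corn oil replicate 1 or without knockout corn oil replicate 1. Vtn over the 3 treatments also did not pass without the 2 arrays that stood apart (adjusted p = 0.0696). Over the 4 treatments 5 passed without knockout TCPOBOP replicate 1. Kng1, Vtn, F9 and F2 passed in all 16 fits that left out 1 mouse, Cfi in 15 and F12 in 12, but F5 in 1, and F5 did not pass without the 2 arrays that stood apart either (adjusted p = 0.0571). Of the 10 hepatocyte markers 2 were higher in the knockout over the 4 treatments, Alb by 0.23 and Ahsg by 0.26, and of the Kupffer markers 2 were lower and 1 higher. Their part in these differences was not tested.

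The comparisons on corn oil alone gave no calls among the 36 genes. In knockout against wild type 0.229% of all genes passed. At an unadjusted p under 0.05 the difference was positive for 3 of the 36 and negative for 1, against 352 and 250 of all 9167 genes. After C6 the widest difference was that of Cfi (0.39, adjusted p = 0.397). In human CAR mice against wild type 0.0545% of all genes passed. At that unadjusted level 1 of the 36 was higher and 2 lower, against 376 and 333 of all 9167 genes. The widest differences were in F11 (-0.57, adjusted p = 0.617) and C6 (-0.39, adjusted p = 0.767). In human CAR mice against knockout 0.12% of all genes passed, 0.0764% lower and 0.0436% higher. At the unadjusted level 1 of the 36 was higher and 1 lower, against 248 and 344 of all 9167 genes. The widest differences were in C6 (0.72, adjusted p = 0.496) and F11 (-0.53, adjusted p = 0.771).

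CITCO changed none of the 36 genes in any genotype, although Cyp2b10 was higher with it by 3.01 in human CAR mice and by 3.23 in wild type. In human CAR mice 0.0873% of all genes passed. At an unadjusted p under 0.05, 5 of the 36 changes were negative and 0 positive, against 359 and 328 of all 9167 genes. The widest changes were those of Mbl2 (-0.67, adjusted p = 0.595) and F12 (-0.45, adjusted p = 0.335). In wild type 0.0327% of all genes passed, and 1 of the 36 was lower at the unadjusted level, against 357 of all 9167 genes. The widest changes were those of F12 (-0.37, adjusted p = 0.572) and C6 (-0.32, adjusted p = 0.807). In the knockout 0.0327% of all genes passed, and 4 of the 36 were lower at the unadjusted level, against 510 of all 9167 genes. There 31 of the 36 changes (86.1%) were negative, against 50.1% of all genes, with a median of -0.15. The widest changes were those of F11 (-0.69, adjusted p = 0.401) and Klkb1 (-0.62, adjusted p = 0.543). The CITCO change in human CAR mice minus that in the knockout passed for none of the 36 genes and for 0.0327% of all genes. At an unadjusted p under 0.05, 3 were above and 1 below 0, against 357 and 265 of all 9167 genes. The widest differences were those of F11 (1.05, SE 0.36, adjusted p = 0.568) and Serpind1 (0.56, SE 0.22, adjusted p = 0.633). The median 95% interval of a ligand change of the 36 genes reached 0.27 to either side, without adjustment for the number of genes tested. A call needed a larger change than this for a typical gene, as the F12 change of -0.45 in human CAR mice did not pass. The absence of a call therefore does not exclude a change. Which sizes stay within the interval depends on each gene's own change and SE.

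The 3 fibrinogen chains reached their highest values on 2 single arrays. None of them passed in any comparison of a ligand with corn oil. Each was highest on the 2 arrays that stood apart: Fga was 12.93 on both, against 12.27 to 12.81 on the other 22. Fgb was 13.26 and 13.29, against 12.53 to 13.17, and Fgg was 13.09 and 13.15, against 12.58 to 12.95. Fibrinogen is an acute phase protein, and the summed level of 18 acute phase genes was 16.25 and 16.55 on these arrays, against 15.82 to 16.43 on the others. The phenobarbital changes of Fgb were -0.25 in wild type, 0.13 in the knockout and 0.20 in human CAR mice, and each of the last 2 groups holds 1 of these arrays. Over all 36 genes the median deviation from a gene's mean was -0.13 and -0.15 on the 2 arrays, within the range of -0.22 to 0.16 of the others.

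**Figure D5:**
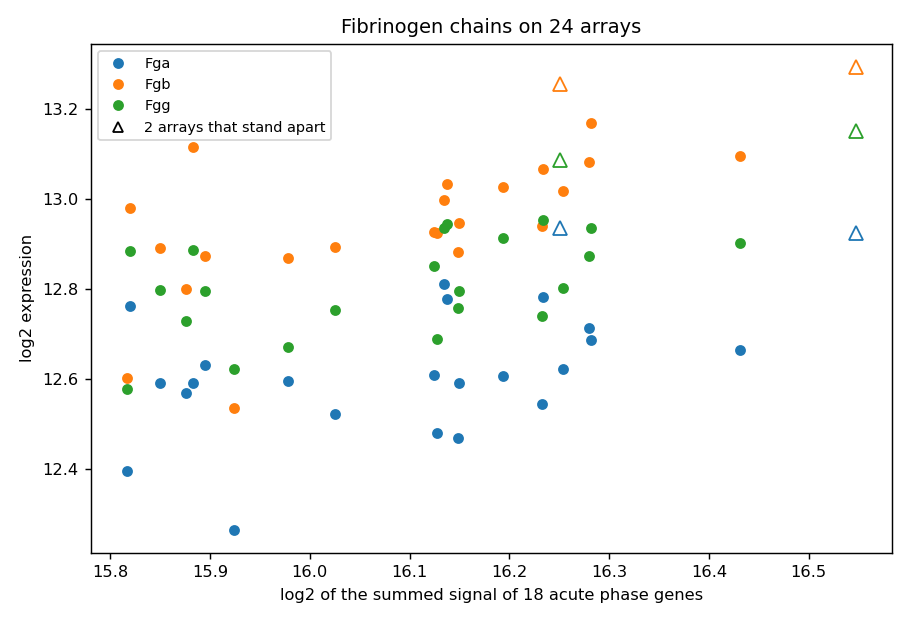
Log2 expression of the fibrinogen chains Fga, Fgb and Fgg on each of the 24 arrays (vertical axis) against the log2 of the summed signal of 18 acute phase genes (horizontal axis). Open triangles mark the 2 arrays that stand apart, which hold the highest value of each chain.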

How the data were processed

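Liver RNA of 24 mice was hybridised to Affymetrix mouse arrays, 1 per mouse. The values used are log2 expression as deposited by the authors, made with RMA in R 2.15.0 per the submitters' processing notes. Further settings: not given in the sources used here. Of 22690 probe sets, 64 were controls, 20380 carried a single gene symbol in the platform annotation, 691 several and 1555 were not listed. Each gene is read from its brightest probe set on average over the 24 arrays, and 9167 of 12393 genes lay above their array's 40th percentile on at least 2 arrays. RMA shrinks large differences of dim probes, and microarray signal has no common scale between probes.

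All 24 arrays entered one limma fit (version 3.58.1, R 4.3.3) of 12 group means with 12 residual degrees of freedom, with Benjamini-Hochberg adjustment over the 9167 genes within a comparison and a threshold of 0.05. The spread is thus shared between groups, and where 1 array was left out, the lone mouse was assumed to vary like the others. The script was tested on simulated data. In 5 comparisons added after the values were seen, groups were averaged or the TCPOBOP change was compared with that of human CAR mice. The labels do not say whether equal replicate numbers pair mice, and the values showed no steady pairing, so no block was used. The members and lists were chosen with earlier results of these data known. All genes past the threshold were named, up to 12, or otherwise the 2 with the widest change. Also named were the 8 genes with the widest and the 4 with the narrowest range of group means. Alternatives were array weights, a replicate block, a robust prior with variance trend, cyclic loess, averaged probe sets, no dim filter or a stricter one, fits of only the genotypes compared, and leaving out arrays. Motifs were searched with Python 3.11.15. Gene symbols came from GEO's platform annotation and RefSeq.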

Additional observations from a re-analysis of the deposited data

Results flagged for a closer look

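2 genes had a TCPOBOP change that differed between genotypes in a direct test of the difference. For F11 the change in wild type minus that in human CAR mice was -1.77 (limma, adjusted p = 0.0140), and both human CAR mice given TCPOBOP were above both given corn oil, while both wild-type mice were below. For C9 the same difference was -0.96 (adjusted p = 0.0489), with both wild-type mice given TCPOBOP below both on corn oil and the human CAR groups overlapping. The C9 call was lost in 6 of 8 fits that left out 1 mouse (largest adjusted p = 0.240) and under 6 of 9 other settings, and that of F11 in 5 of 8 (largest adjusted p = 0.0835) and under 0 of 9. Over all genes tested 1.87% passed this test, which was chosen after the values were seen.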

How the results depend on the processing

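None of the 42 changes past the threshold turned its sign under the settings run. They were picked for lying far from 0 against their SE in these same data, so this does not support them. Some genes also count in several comparisons. Changes that did not pass did turn: with TCPOBOP in wild type 4 of 27 under at least 1 setting (C6, Masp1, Masp2 and Serpinc1), and with phenobarbital over the 3 genotypes 10 of 21. Of the 36 genes, the following numbers passed under settings that moved a count by more than 1.5 times. With array weights the count was 4 for phenobarbital in wild type, 3 for TCPOBOP in the knockout, 0 for phenobarbital in the knockout, 2 for CITCO in the knockout, 1 for the TCPOBOP change of wild type minus knockout and 0 for human CAR against knockout over 4 treatments. With fewer arrays in the fit it was 3 for phenobarbital in wild type, 0 for TCPOBOP and 0 for phenobarbital in the knockout, 2 for the TCPOBOP change of wild type minus knockout (both higher) and 1 for that of wild type minus human CAR. Without the 2 arrays that stand apart it was 3 for phenobarbital in wild type, 0 in the knockout and 2 over the 3 genotypes, and 5 for wild type minus human CAR. Cyclic loess gave 6 for phenobarbital over the 3 genotypes. No dim filter gave 1 for wild type minus human CAR, the stricter filter and the variance trend each gave 1 for phenobarbital in human CAR mice, and the mean of probe sets gave 1 for knockout against wild type over 3 treatments.

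Leaving out 1 mouse at a time gave 3 to 5 genes for TCPOBOP in wild type, 0 in each fit for TCPOBOP in the knockout, 0 to 1 for phenobarbital in wild type, 0 to 6 in the knockout, 0 to 5 in human CAR mice and 6 to 18 over the 3 genotypes. It gave 0 to 1 for knockout against wild type on corn oil, 5 to 9 over 4 treatments and 1 to 3 over 3 treatments, and 0 to 3 for wild type minus human CAR. The phenobarbital ranges other than that of wild type include fits in which a group rests only on an array that stood apart. Calls of those fits are not read here. The cause was not tested. The labels do not say whether equal replicate numbers pair mice. Over 66 pairs of groups the correlation of same-numbered deviations ran from -0.449 to 0.424 with a median of 0.03, which showed no steady pairing. With the replicate block 9 genes passed for TCPOBOP in wild type, 3 for phenobarbital in the knockout, 16 for phenobarbital over the 3 genotypes and 7 for knockout against wild type over 4 treatments. Under cyclic loess Vtn did not pass for TCPOBOP in wild type (adjusted p = 0.0908).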

Other observations

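Several of the 36 genes are neighbours in the genome, and their TCPOBOP changes in wild type can be set side by side. F11 changed by -1.07 and its neighbour Klkb1 by -0.71, the first past the threshold and the second not. C8a and C8b, neighbours on another chromosome, changed by -0.61 and -0.45, and again only the first passed. Cfb and C2 changed by -0.43 and -0.46 and neither passed. Kng1 fell by 0.55, while Hrg, near it on the same chromosome, changed by 0.14. F7 and F10 changed by 0.20 and 0.26, and the fibrinogen genes Fgg, Fga and Fgb by -0.14, -0.26 and -0.28, none past the threshold. The pairs were chosen after the values were seen, and the likeness within pairs was not tested.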
